A study of Mus musculus with 4 samples.

Results

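The respiratory chain was followed in normal and post-ischemic mouse kidney through 59 genes of the 32285 in the files. The members were chosen by name: the 13 protein-coding genes of mitochondrial DNA and 46 nuclear genes for subunits of complexes I to IV. Of the nuclear members, 25 belong to complex I, 4 to complex II, 7 to complex III, 1 is the electron carrier cytochrome c and 9 belong to complex IV. All 59 passed the filter on low counts.

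Spatial transcriptomics (10X Visium, which reads polyadenylated RNA in barcoded spots that each cover several cells) was carried out on 4 left kidney sections, 10 µm thick, from male WT C57BL/6J mice aged 7 to 8 weeks. In 2 sections the treatment was "Normal ctrl", for which the labels name no sham operation. The other 2 came from mice whose renal pedicles were both clamped for 30 min and whose kidneys were taken 24 h after ischemia. The 4 sections lay on 1 slide, and the labels do not say which mouse gave which section, so p-values measure the spread between sections, which may be technical.

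The respiratory chain passes electrons from NADH (complex I) and succinate (complex II) through complex III and cytochrome c to oxygen at complex IV, and complex V uses the proton gradient that this builds to make ATP. Complexes I, III, IV and V are mosaics, with core subunits translated inside the mitochondrion from mitochondrial DNA and the other subunits translated in the cytosol from nuclear genes, whereas complex II is all nuclear. Proximal tubules and thick ascending limbs carry out most of the kidney's active transport and are rich in mitochondria.

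Depth was 25957128 to 44528078 unique molecular identifiers (UMIs, counted molecules) per section in 2401 to 2682 tissue spots, with medians of 8656 to 16162.5 UMIs per spot. The normal 1 library was the deepest and had the lowest TMM scaling factor (0.829, against 0.998 to 1.10 in the other libraries). The kidney origin was visible in its markers: the 10 proximal tubule markers summed to 7323 and 5915 counts per 1000000 UMIs (CPM) in normal sections and to 880 and 869 CPM in ischemic sections, and the 4 thick limb markers to 4279 and 4145 CPM against 2608 and 2649 CPM. The 7 injured tubule markers moved the opposite way, from 202 and 248 CPM to 5088 and 5651 CPM. In spots that mix cells, fewer cells of a type and less RNA per cell cannot be told apart.

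Mitochondrial genes lie end to end and some overlap, so a few reads cannot be given to 1 gene by position. The overlaps are shown because they bear on the counts of mt-Atp8, mt-Nd4l and mt-Nd6, the members with the fewest UMIs. Each line gives the plus strand of mitochondrial DNA in GRCm38, with the bases shared by both genes in capitals.
mt-Atp8 and mt-Atp6, chrM:7907-7989: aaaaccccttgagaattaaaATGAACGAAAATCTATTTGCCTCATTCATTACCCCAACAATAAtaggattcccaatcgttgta
mt-Nd4l and mt-Nd4, chrM:10147-10193: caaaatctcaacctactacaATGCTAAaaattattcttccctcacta
mt-Nd5 and mt-Nd6, chrM:13532-13585: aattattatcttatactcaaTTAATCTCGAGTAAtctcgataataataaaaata
The first and second overlaps join neighbours on the same strand and span 43 and 7 bases. The third spans 14 bases and joins mt-Nd5 to mt-Nd6, which is read from the other strand. The sources used here do not state how the counting used strand.

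A stretch of nuclear DNA also copies part of the mitochondrial genome almost letter for letter. Positions 6390 to 11042 of mitochondrial DNA matched chromosome 1 at 24611535 to 24616188 (GRCm38) with 99.936% identity over 4654 aligned bases. The copy holds all of mt-Co2, mt-Atp8, mt-Atp6, mt-Co3, mt-Nd3 and mt-Nd4l, 63.6% of mt-Nd4 and 31.3% of mt-Co1, and no base of mt-Nd1, mt-Nd2, mt-Nd5, mt-Nd6 or mt-Cytb. The 7 pseudogenes that GENCODE M21 places there are not among the genes of the files, so reads of the copy, if transcribed, could be counted only for the mitochondrial gene. The values of the genes that the copy holds in full are uncertain to that extent.

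For the nuclear members, the DNA before the transcription start was examined for 2 letter patterns known from respiratory genes: the core of the NRF1 site (GCGCANGCG, or CGCNTGCGC on the other strand) and an ETS core of the kind bound by GABP, also called NRF2 (CCGGAAG, or CTTCCGG). RefSeq promoter windows of 300 bases (GRCm38.p6, 250 before to 50 after the start) matched 36 of the 46 nuclear members. The NRF1 core stood in 10 of the 36 (27.8%) and in 7.0% of 27025 genes of the same table. The ETS core stood in 9 of the 36 (25%) and in 9.9% of the table. Of these windows, 120 bases upstream of the start are printed for a pair of members with large changes after ischemia (Ndufb8, Cox8a) and a pair with small ones (Cycs, Sdhd), with the patterns in capitals.
Ndufb8, chr19:44555443-44555562, minus strand: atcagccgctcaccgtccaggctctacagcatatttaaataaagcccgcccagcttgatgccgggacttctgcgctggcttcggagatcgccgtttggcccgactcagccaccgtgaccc
Cox8a, chr19:7217617-7217736, minus strand: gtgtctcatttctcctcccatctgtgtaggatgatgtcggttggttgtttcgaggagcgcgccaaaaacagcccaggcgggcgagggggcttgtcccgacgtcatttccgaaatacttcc
Cycs, chr6:50566570-50566689, minus strand: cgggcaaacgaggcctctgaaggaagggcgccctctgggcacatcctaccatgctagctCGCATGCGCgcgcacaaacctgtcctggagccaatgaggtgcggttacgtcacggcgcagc
Sdhd, chr9:50603850-50603969, minus strand: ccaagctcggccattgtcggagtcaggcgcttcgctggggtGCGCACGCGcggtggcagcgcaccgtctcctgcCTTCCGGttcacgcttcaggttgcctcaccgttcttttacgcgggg
Neither pattern is in the 300-base window of Ndufb8, which says only that these letters are not there. The window of Cox8a holds the ETS core outside the printed bases, that of Cycs the NRF1 core and that of Sdhd both patterns. The printed members are examples, and others went the other way. The window of Sdhb, with the largest fall, holds the ETS core, and that of Sdha (-1.02) the NRF1 core. The window of Ndufa7, with the smallest fall of the nuclear members, holds neither. Across the 36 members the changes overlapped. The 10 with the NRF1 core had log2 fold changes of -1.05 to -0.27 (median -0.79), and the 26 without it -1.45 to -0.23 (median -0.92). The 9 with the ETS core had -1.45 to -0.27 (median -0.77), and the 27 without it -1.36 to -0.23 (median -0.88).

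The first comparison asked whether the members differed between ischemic and normal kidney as a whole. UMIs were summed over all tissue spots of a section and compared by the quasi-likelihood method of edgeR, adjusting over 15305 genes after Benjamini and Hochberg, with a threshold of 0.05. No member was higher, at an unadjusted p under 0.05 either, and 52 of 59 were lower after ischemia: 42 of 46 nuclear members (median log2 fold change -0.87) and 10 of 13 mitochondrial members (median -0.69). Among all genes tested, 29.7% were lower and the median log2 fold change was 0.04. Both ischemic sections lay below both normal sections in 58 of 59 members, mt-Nd3 being the exception, against 39.2% of all genes tested.

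**Figure D1:**
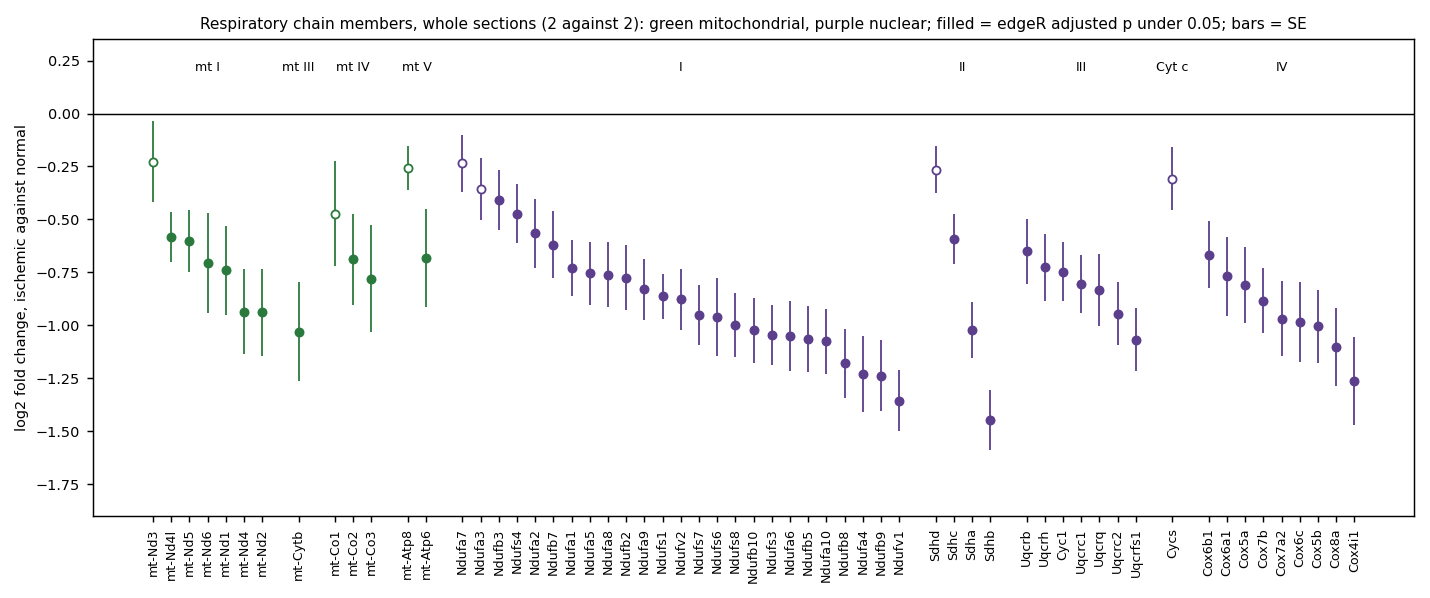
Log2 fold change of each member, ischemic against normal whole sections (n = 2 each), grouped by complex, with mitochondrial members in green and nuclear members in purple. Points are edgeR estimates, bars are standard errors, and filled points passed the test: with TMM scaling all 59 lie below 0, from -0.23 to -1.45 (4 of the open ones lie above 0 without it), and the 7 open points are mt-Nd3, mt-Co1, mt-Atp8, Ndufa7, Ndufa3, Sdhd and Cycs.

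These counts rested on both ischemic sections, and the share of all genes that were lower rose without normal 1 or normal 2. Without ischemic 1 the test called 18 nuclear and 0 mitochondrial members lower, and without ischemic 2 it called 16 and 1, while without normal 1 or normal 2 it called 46 nuclear and 12 or 13 mitochondrial members. Of all genes, 20.8% were lower without ischemic 1 and 20.4% without ischemic 2. All 59 log2 fold changes above are relative to TMM scaling: on total UMIs alone the median over all genes tested was 0.31. On that scale 40 nuclear and 8 mitochondrial members were called lower (18.5% of all genes were), while mt-Nd3 (0.0378), mt-Atp8 (0.023), Ndufa7 (0.0316) and Sdhd (0.0006) lay just above 0.

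Complex I is the entry point for NADH. Its flavoprotein subunit Ndufv1, which holds the site where NADH is oxidized, stood at 470 and 377 CPM in normal sections and at 167 and 164 CPM in ischemic sections, so the groups were well apart. Its log2 fold change was -1.36 ± 0.14 (SE, adjusted p = 5.1e-05), the largest fall among the 25 nuclear members of complex I. Ndufv2, its partner in the NADH-binding module, had the median change (440 and 358 CPM against 226 and 209 CPM, log2 fold change -0.88). Ndufa7, an accessory subunit, changed least, with 613 and 619 CPM against 513 and 534 CPM, and did not pass (adjusted p = 0.16). Ndufa3 did not pass either (adjusted p = 0.058), and the other 23 fell.

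Ndufa4 carries a complex I name and is counted here by that name, although the protein is now known as a subunit of complex IV. It fell from 3801 and 3383 CPM to 1539 and 1525 CPM (log2 fold change -1.23). The largest falls after Ndufv1 among the members with complex I names were those of Ndufb9 (-1.24), Ndufa4 and Ndufb8 (-1.18), and the smallest that passed were Ndufs4 (-0.47) and Ndufb3 (-0.41).

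Complex II, succinate dehydrogenase, also serves the tricarboxylic acid cycle. Its 4 subunits differed widely in size of change. Sdhb, the iron-sulfur subunit, stood at 598 and 506 CPM in normal sections and at 208 and 197 CPM in ischemic sections. Sdhb thus changed by -1.45 ± 0.14 on the log2 scale (SE, adjusted p = 2.9e-05), the largest fall of any member. Sdha, the flavoprotein subunit, fell by 1.02 on the log2 scale and Sdhc, a membrane anchor, by 0.59. Sdhd, the other membrane anchor, had 175 and 179 CPM against 150 and 145 CPM and did not pass (log2 fold change -0.27, adjusted p = 0.066).

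Complex III hands electrons to cytochrome c, and all 7 of its nuclear members fell, from Uqcrb at -0.65 to Uqcrfs1, the Rieske iron-sulfur protein, at -1.07. Uqcrfs1 had 793 and 666 CPM in normal sections and 357 and 339 CPM in ischemic sections. The member of median change was the core protein Uqcrc1 (539 and 463 CPM against 283 and 289 CPM, log2 fold change -0.81), and Uqcrb had 1200 and 1043 CPM against 738 and 690 CPM.

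Cycs, the mobile carrier between complexes III and IV and also a trigger of apoptosis when released, changed less than the subunits around it. It had 1068 and 1063 CPM in normal sections and 881 and 842 CPM in ischemic sections, apart but with a log2 fold change of only -0.31 ± 0.15 (SE), which did not pass (adjusted p = 0.098). Processed pseudogenes are known for Cycs, and how reads shared with them were counted was not examined here.

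Complex IV reduces oxygen, and all 9 nuclear members with its name fell. Cox4i1, a regulatory subunit, fell most, from 4583 and 3440 CPM to 1708 and 1634 CPM (log2 fold change -1.26 ± 0.21, SE, adjusted p = 0.00067). Cox7a2 had the median change (2383 and 1987 CPM against 1161 and 1073 CPM, -0.97), and Cox6b1 the least (1236 and 1021 CPM against 715 and 707 CPM, -0.67).

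The 7 mitochondrial members of complex I encode its membrane arm. mt-Nd1 fell from 3452 and 2674 CPM to 1618 and 2049 CPM (log2 fold change -0.74), and mt-Nd2 from 4318 and 3248 CPM to 1862 and 2083 CPM (-0.94). mt-Nd4 fell alike, from 4414 and 3618 CPM to 1921 and 2278 CPM (-0.94), and mt-Nd5 from 363 and 299 CPM to 201 and 235 CPM (-0.60). The 4 genes shared a pattern in which normal 1 was the highest library and ischemic 1 the lowest. mt-Nd4l, at 86.3 and 87.7 CPM against 52.3 and 63.9 CPM, fell by 0.58 on the log2 scale, and mt-Nd6, at 2.06 and 2.17 CPM against 1.296 and 1.291 CPM, by 0.71, the latter on 37 to 76 UMIs per section. mt-Nd3 had 970.0 and 1023 CPM against 699 and 1004 CPM, so its groups overlapped, and did not pass (adjusted p = 0.33).

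mt-Cytb, the only mitochondrial member of complex III, showed the largest fall of the 13, from 10675 and 8166 CPM to 4494 and 4732 CPM (log2 fold change -1.03 ± 0.23, SE, adjusted p = 0.0042). mt-Co1, the catalytic subunit of complex IV, had 10637 and 8024 CPM against 6093 and 7356 CPM and did not pass (log2 fold change -0.47 ± 0.25, SE, adjusted p = 0.13). Its neighbours in the complex did: mt-Co2 fell from 4527 and 3742 CPM to 2237 and 2894 CPM (-0.69), and mt-Co3 from 15162 and 11862 CPM to 7308 and 8433 CPM (-0.78). Of the complex V members, mt-Atp6 fell from 8289 and 6410 CPM to 4182 and 4984 CPM (-0.68), whereas mt-Atp8, at 36.4 and 31.7 CPM against 27.3 and 29.9 CPM, did not pass (-0.26, adjusted p = 0.059).

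Mitochondrial transcripts took 5.21% and 4.91% of all UMIs in normal sections and 3.36% and 3.99% after ischemia. The nuclear members took 4.46% and 4.51% against 2.94% and 2.84%, so both arms of the chain lay lower after ischemia in both sections. The log2 ratio of mitochondrial to nuclear UMIs, which needs no scaling between libraries, was 0.23 and 0.12 in normal sections and 0.19 and 0.49 in ischemic sections. These ranges overlapped, and no test was run because 2 against 2 sections cannot reach the threshold in a permutation test. By zone the ratio was 0.08 and -0.39 against 0.18 and 0.43 in the inner stripe, where the groups did not overlap, and 0.65 and 0.46 against 0.24 and 0.58 in the inner medulla, where they did.

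Blood moved with the mitochondrial share. The 4 red cell markers summed to 10710 and 9046 CPM in normal sections and to 698 and 1462 CPM in ischemic sections. In the 5% of spots with the largest red cell share (120 to 133 spots of at least 500 UMIs per section), the median mitochondrial share was 9.75% and 10.7% in normal sections, against 4.49% and 3.53% in the other spots. In ischemic sections it was 5.79% and 6.33% against 2.84% and 3.16%. The nuclear share did not follow: in the red cell spots of normal sections it was 3.59% and 3.34%, below the 4.44% and 4.52% of the other spots, and in ischemic sections 2.85% and 2.93% against 2.80% and 2.71%.

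**Figure D2:**
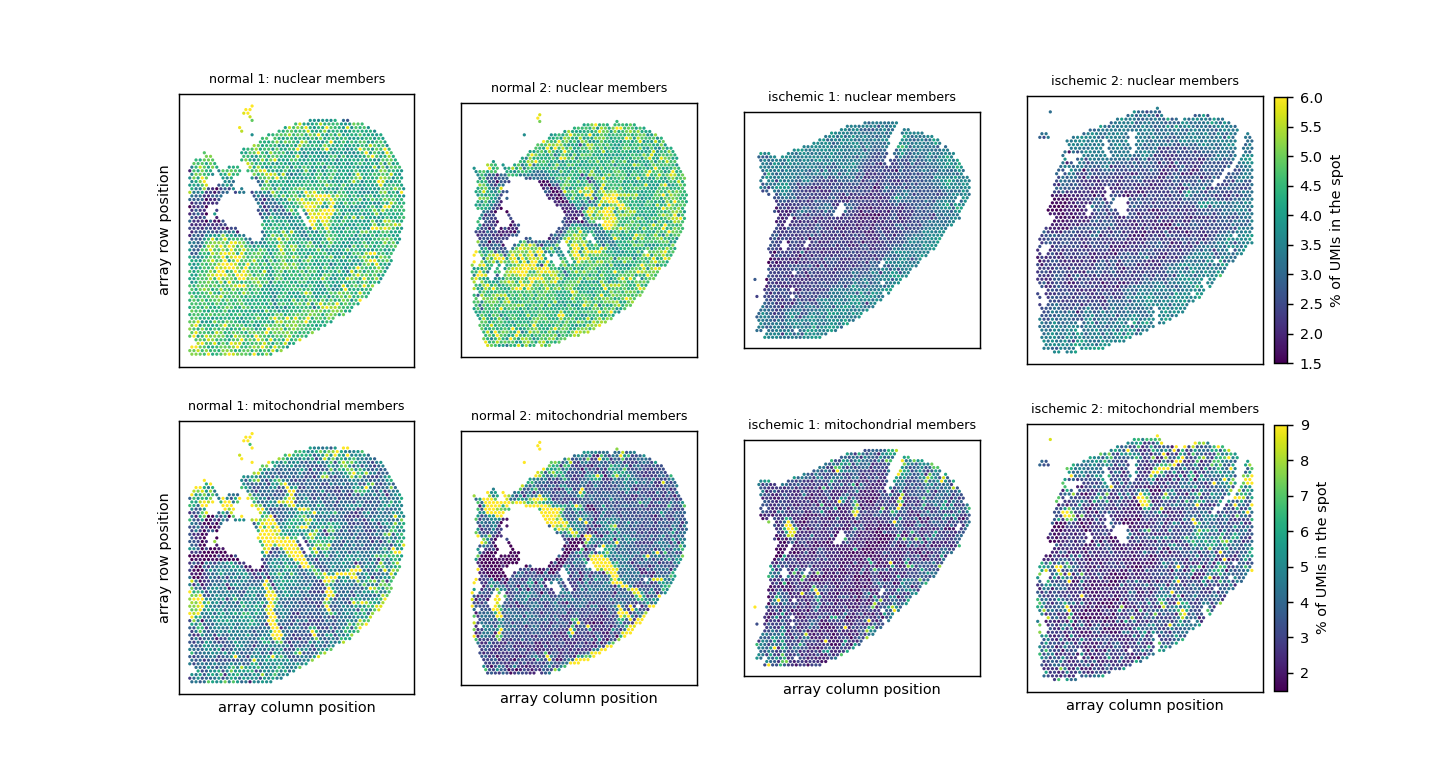
Share of UMIs taken by the 46 nuclear members (top) and the 13 mitochondrial members (bottom) in each tissue spot of at least 500 UMIs, at its row and column on the array, in the 4 sections; colours are clipped at 1.5% and at 6% (top) or 9% (bottom). Normal sections are brighter in the top panels over most of the tissue, and 6.45% and 6.46% of their spots exceed 9% in the bottom panels, against 1.13% and 2.25% of spots in ischemic sections.

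Sums were also taken over only the spots with under 0.2% of their UMIs from red cell markers (1872 to 2313 spots per section). This limit was chosen after seeing the data. In these sums the mitochondrial share was 4.79% and 4.10% (normal) against 3.21% and 3.65% (ischemic). The test called 6 mitochondrial and 42 nuclear members lower (27.8% of all genes were). The log2 ratio of mitochondrial to nuclear UMIs was then 0.10 and -0.15 in normal sections and 0.13 and 0.36 in ischemic sections, which no longer overlapped. Which zones separated depended on these spots: with few red cell UMIs the ratio separated the groups in the outer stripe (0.03 and -0.22 against 0.15 and 0.43), the inner stripe (0.01 and -0.42 against 0.12 and 0.37) and the inner medulla (0.13 and -0.14 against 0.19 and 0.42). In the pelvis it overlapped (-0.09 and 0.16 against 0.09 and 0.20), as it did in the cortex.

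The make-up of the mitochondrial UMIs was compared because shares within the 13 genes need no scaling between libraries. mt-Co1 made up 16.9% and 16.3% of the 13 genes' UMIs in normal sections and 19.9% and 20.4% in ischemic sections, and mt-Cytb 17.0% and 16.6% against 14.6% and 13.1%. mt-Nd3 (1.54% and 2.08% against 2.28% and 2.78%), mt-Nd5, mt-Atp6 and mt-Atp8 also took higher shares in both ischemic sections, and mt-Nd2, mt-Nd4 and mt-Co3 lower ones. The shares of mt-Nd1, mt-Nd4l, mt-Nd6 and mt-Co2 overlapped between groups.

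The ratio of mt-Co1 to mt-Cytb UMIs, singled out after these values were seen, was 0.997 and 0.983 in normal sections and 1.36 and 1.55 in ischemic sections. Both ischemic sections lay above both normal sections in each of the 5 kidney zones described below. On the log2 scale the ratio was 0.10 and 0.10 in normal cortex against 0.31 and 0.53, and -0.24 and -0.44 in the normal inner stripe against 0.71 and 0.77. In spots with few red cell UMIs it was -0.07 and -0.16 in normal sections and 0.42 and 0.61 in ischemic sections. The nuclear copy holds 31.3% of mt-Co1 and none of mt-Cytb, and its part in the ratio was not tested.

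**Figure D3:**
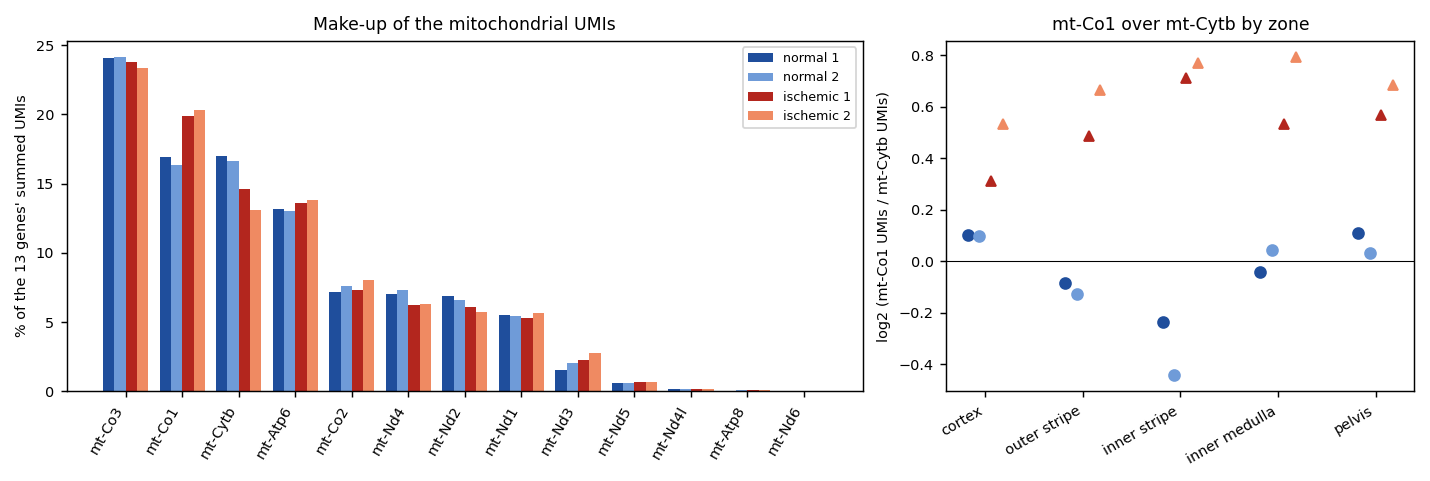
Left, the percent of the 13 mitochondrial genes' summed UMIs that each gene took in the 4 sections (bars, 1 per section). Right, the log2 ratio of mt-Co1 to mt-Cytb UMIs in 5 kidney zones, with circles for normal and triangles for ischemic sections: normal sections lie between -0.44 and 0.11 and ischemic sections between 0.31 and 0.79.

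The next comparison asked where in the kidney the members differed. Each spot was assigned to cortex, outer stripe, inner stripe, inner medulla or pelvis from markers in the spot and its neighbours, scored within its section, and UMIs were summed per section and zone. For ischemic against normal the zones of a section entered as separate sums with no section term and shared an estimate of the spread. Zones of a section are not independent, so these p-values may be too small. Since tubule markers changed after ischemia, a zone need not hold the same tissue in both groups. Proximal tubule markers of the cortex sum, for example, were at 8972 and 8774 CPM in normal and at 1610 and 1649 CPM in ischemic sections. All marker CPM by zone are given without TMM scaling, unlike the CPM of members.

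In the cortex 38 nuclear and 4 mitochondrial members were lower (medians -0.64 and -0.57; 19.9% of 14174 genes tested were lower). In the outer stripe, the zone of straight proximal tubules, 45 and 9 were lower (medians -1.08 and -0.77; 29.5% of genes). In the inner stripe, the zone of thick limbs, 46 and 8 were lower (medians -1.26 and -0.77; 25.9% of genes), and in the inner medulla 41 and 11 (medians -0.81 and -1.16; 21.2% of genes). No member was higher in any of the 4 zones in edgeR's test, and none was at an unadjusted p under 0.05.

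**Figure D4:**
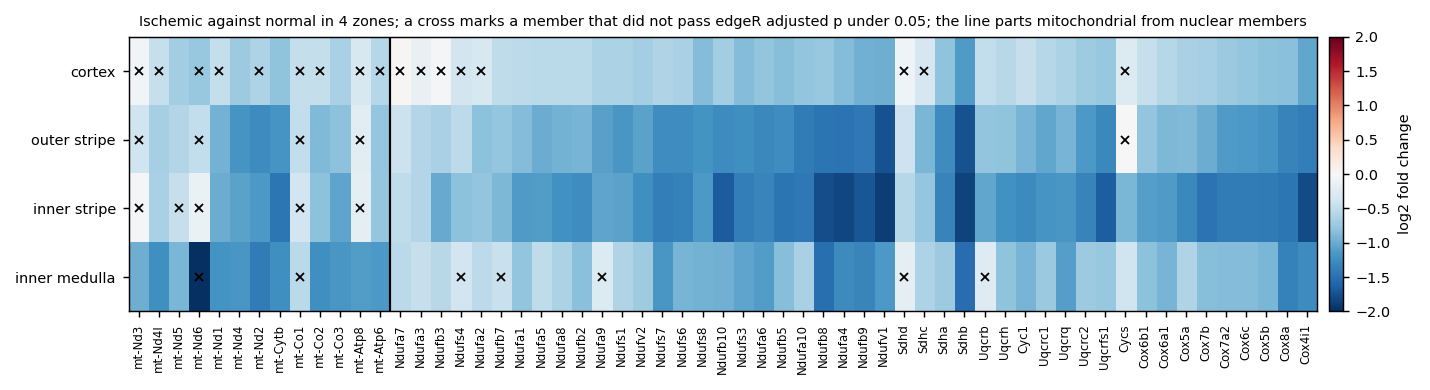
Log2 fold change of each member, ischemic against normal, in 4 zones (rows), with mitochondrial members left of the line and nuclear members right of it, ordered as in the plot by complex; a cross marks a member that did not pass the test. The cortex row is the palest for nuclear members (median -0.64) and the inner stripe row the darkest (median -1.26).

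Sdhb and Ndufv1 were among the 3 largest falls in the cortex, the outer stripe and the inner stripe. In the cortex Sdhb had 702 and 608 CPM against 305 and 291 CPM (log2 fold change -1.14), Cox4i1 changed by -1.03 and Ndufv1 by -0.97. In the outer stripe Ndufv1 had 621 and 516 CPM against 166 and 172 CPM (-1.75), Sdhb changed by -1.75 and Ndufa4 by -1.48. In the inner stripe Ndufv1 had 505 and 391 CPM against 117 and 126 CPM (-1.88), Sdhb changed by -1.85 and Ndufa4 by -1.83. In each of these zones the ischemic sections lay close together and far below the normal ones.

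In the inner medulla the 3 largest falls among nuclear members were those of Sdhb (-1.52), Ndufb8 (-1.51) and Cox8a (-1.34), and mt-Nd2 fell by 1.41 on the log2 scale. Other tissue in this zone differed too: thick limb markers stood at 2530 and 4853 CPM in normal and at 5382 and 5127 CPM in ischemic inner medulla, and red cell markers at 47938 and 17014 CPM against 545 and 1047 CPM. With spots of few red cell UMIs alone, 3 mitochondrial and 34 nuclear members were lower there (15.5% of all genes were). In the outer stripe 5 and 42 were lower (24.4% of all genes).

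mt-Cytb fell in all 4 zones, most in the inner stripe, where it had 11158 and 7195 CPM against 3182 and 3587 CPM (log2 fold change -1.44). mt-Co1 passed in none of them: its log2 fold changes from the cortex inward were -0.48, -0.49, -0.38 and -0.55. In the inner stripe mt-Co1 had 9478 and 5288 CPM against 5205 and 6116 CPM, so the groups overlapped.

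Cycs differed from the other nuclear members in the outer stripe, where it had 938 and 1001 CPM in normal sections and 963 and 978 CPM in ischemic sections. Its log2 fold change there was 0.00 and it was the only nuclear member that did not pass. In the inner stripe Cycs fell, from 903 and 1023 CPM to 516 and 504 CPM, and in the cortex, at 1576 and 1613 CPM against 1325 and 1326 CPM, it did not pass (-0.27).

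The cortex counts rested on single sections, and the share of all genes that were lower there rose without normal 1 or normal 2. Without ischemic 1 they were 4 nuclear and 0 mitochondrial members, without ischemic 2 they were 1 and 0, and without normal 1 or normal 2 they were 44 and 12 or 42 and 11. Of all genes in the cortex, 8.25% were lower without ischemic 1 and 8.13% without ischemic 2, so the members' shares were then near or below the background. In the outer stripe the nuclear count was 35 to 45 and in the inner stripe 39 to 46 over the same 4 omissions. Mitochondrial counts moved more: without ischemic 1 they were 2, 1 and 2 in the outer stripe, inner stripe and inner medulla, the inner stripe had 4 without ischemic 2 and 5 without normal 1, and the other omissions gave 6 to 12. In the inner medulla 17 nuclear members were lower without ischemic 1 and 18 without ischemic 2, where 10.4% and 11.3% of all genes were.

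**Figure D5:**
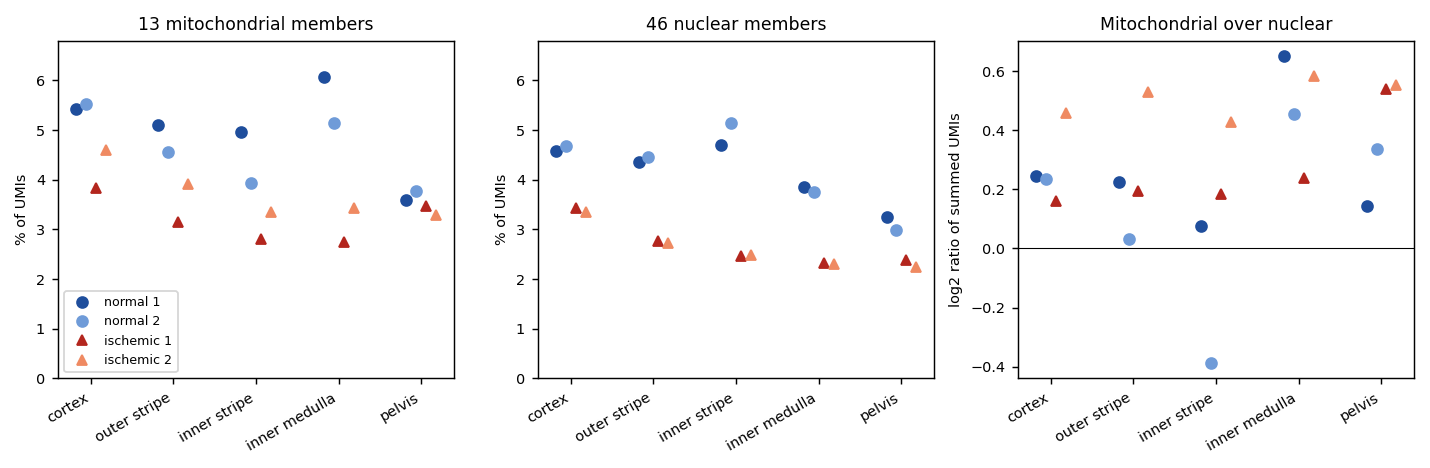
Percent of UMIs from the 13 mitochondrial members (left) and the 46 nuclear members (middle), and the log2 ratio of the summed UMIs (right), in 5 zones of the 4 sections; each symbol is 1 section, circles normal and triangles ischemic. Nuclear shares of the ischemic sections lie below those of the normal sections in every zone, and the ratio separates the groups in the inner stripe and the pelvis when all spots are used.

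The order of the zones by nuclear share differed between the groups. The normal cortex held 4.58% and 4.69% of its UMIs in nuclear members, the outer stripe 4.37% and 4.45%, the inner stripe 4.71% and 5.15% and the inner medulla 3.86% and 3.75%. After ischemia the cortex held 3.42% and 3.35%, the outer stripe 2.76% and 2.72%, the inner stripe 2.47% and 2.49% and the inner medulla 2.32% and 2.29%. The inner stripe thus held the highest nuclear share in normal sections, while in ischemic sections the cortex did.

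Spot by spot the same turn was seen with tubule markers. The Spearman correlation of the nuclear share with the share of thick limb markers was 0.37 and 0.49 in normal sections and -0.65 and -0.55 in ischemic sections, over 2382 to 2647 spots of at least 500 UMIs. With the share of proximal tubule markers it was 0.04 and 0.00 in normal sections and 0.69 and 0.56 in ischemic sections. Spots of a section share a library and neighbours share tissue, so these are descriptions.

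The differences between zones were tested within sections, with the section as a block. In normal sections the outer stripe differed little from the cortex: 4 nuclear members were higher (12.5% of all genes were), with Ndufb8 the largest at a log2 difference of 0.51, and 1 was lower (10.3% of genes), Cycs at -0.72. The others that were higher were Ndufa4 (0.33), Ndufs6 (0.32) and Cox8a (0.32), and no mitochondrial member passed or had an unadjusted p under 0.05 in edgeR. Without normal 2 there were 9 nuclear and 3 mitochondrial members that were higher and 2 nuclear that were lower, without normal 1 there was 1 mitochondrial and 2 nuclear that were lower, without ischemic 1 or ischemic 2 there was 1 nuclear that was higher, and without the block 0.

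In the normal inner stripe 11 mitochondrial and 14 nuclear members were lower than in the cortex (15.0% of genes were lower and 14.2% higher, but no member was higher). Among those called, mt-Nd3 (-0.91), mt-Co1 (-0.76) and mt-Nd5 (-0.71) had the largest mitochondrial differences (mt-Nd6, at -1.06, did not pass), and Cycs (-0.73), Ndufa6 (-0.59) and Sdha (-0.50) the largest nuclear ones. Over omissions of single sections, the share of all genes that were lower moved as the member counts did. Leaving out normal 2 or either ischemic section lowered both counts, and leaving out normal 1 raised them. Without the block they were 4 and 4, and 9.86% of all genes were lower. The share of nuclear members was then not above that of all genes. In the normal inner medulla 43 nuclear members were lower than in the cortex (20.6% of genes), led by Cycs (-1.40), Uqcrfs1 (-1.24) and Ndufa9 (-1.17), and 4 mitochondrial members were lower, namely mt-Co1 (-0.65), mt-Cytb (-0.55), mt-Co3 (-0.45) and mt-Nd4 (-0.38). mt-Atp8 was higher there (0.55; 19.6% of genes were higher). The nuclear count was 42 to 46 over the 4 omissions, and the mitochondrial lower count 10 without normal 1, 2 without normal 2 and 1 without the block. mt-Atp8 was not called without the block or without normal 1, ischemic 1 or ischemic 2, and without normal 2 there were 3 mitochondrial members that were higher.

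The difference of differences asked whether ischemic against normal was not the same in the medullary stripes as in the cortex. For the outer stripe 33 nuclear members and no mitochondrial member (4 at an unadjusted p under 0.05) had a lower difference than in the cortex by edgeR (13.5% of genes), with a median of -0.44 over the nuclear members, and for the inner stripe 44 nuclear members and mt-Cytb did (13.9% of genes, median -0.62). The largest nuclear differences were Ndufv1 (-0.77), Ndufb8 (-0.70) and Ndufs7 (-0.65) in the outer stripe, and Ndufb8 (-1.02), Ndufb10 (-0.97) and Ndufb3 (-0.96) in the inner stripe. Ndufb3 had 573 and 501 CPM in normal cortex and 547 and 496 CPM in ischemic cortex, which overlapped, but 482 and 395 CPM against 222 and 215 CPM in the inner stripe.

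These counts depended on the block and on the sections, as did the share of all genes that were lower. Without the block they were 1 nuclear member for the outer stripe and 12 for the inner stripe (7.33% and 8.35% of all genes). Without ischemic 1 they were 0 and 10 (3.58% and 5.18% of all genes), and without ischemic 2 they were 0 and 17 (4.15% and 5.38% of all genes), whereas without normal 1 they were 37 and 31 and without normal 2 they were 40 and 46. mt-Cytb was not called for the inner stripe without the block or without normal 1, ischemic 1 or ischemic 2. Mitochondrial counts without normal 2 were 7 for the outer stripe and 8 for the inner stripe, and without normal 1 there were 2 that were lower for the outer stripe and 4 that were higher for the inner stripe. Injured tubule markers stood at 2498 and 2466 CPM in ischemic cortex, 6118 and 6241 CPM in the outer stripe and 8784 and 9791 CPM in the inner stripe, and their part in the difference was not tested.

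Other genes of the pathway were counted from lists in the whole-section test, in which 29.7% of all genes were lower and 31.0% higher, with a median log2 fold change of 0.04. Of 17 other nuclear subunits of complexes I to IV, 16 fell, led by Ndufv3 (log2 fold change -1.56), Ndufb11 (-1.34) and Ndufc2 (-1.10). Of 18 nuclear genes of ATP synthase in the files, which include its inhibitory factor Atpif1, 17 fell. The largest falls were Atp5c1 (-1.16), Atp5f1 (-1.07) and Atp5a1 (-1.0004). Of 12 tricarboxylic acid cycle enzymes 9 fell and 1 rose, and the largest falls were Idh3g (-1.04), Sucla2 (-0.97) and Idh3b (-0.96). The median log2 fold changes of these lists were -0.90, -0.86 and -0.77.

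Lists for building and regulating the chain held called genes in both directions. Of 41 assembly factors tested 23 fell and 4 rose, with Acad9 (-1.25), Sdhaf1 (-0.96) and Ndufaf6 (-0.89) the furthest from 0. Their median log2 fold change was -0.35. Of 27 genes for the upkeep and expression of mitochondrial DNA 7 fell and 6 rose, which is no larger a share than among all genes in either direction, with a median of 0.03. Pnpt1, a mitochondrial RNA-processing enzyme, rose (1.07), and Polg2, a subunit of the mitochondrial DNA polymerase, and Grsf1, an RNA-binding protein of mitochondrial RNA granules, fell (-0.95 and -0.77). Of 78 mitochondrial ribosome genes 29 fell and 6 rose, against 29.7% and 31.0% of all genes, with a median of -0.24. Mrpl33 (1.33), Mrpl28 (-0.93) and Mrpl12 (-0.92) were the called genes furthest from 0.

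Among 12 regulators of mitochondrial biogenesis 6 fell and 3 rose (median log2 fold change -0.63), and the share that rose was no larger than the 31.0% of all genes. Ppargc1a, which encodes the coactivator PGC-1alpha, fell from 25.5 and 29.1 CPM to 10.4 and 10.5 CPM (log2 fold change -1.38, adjusted p = 6.9e-06), and is given beyond the 3 largest changes because its relative Pprc1 is among them. Sirt3, the mitochondrial deacetylase, fell from 115 and 102 CPM to 30.6 and 27.2 CPM (log2 fold change -1.91). Perm1, a regulator known from muscle, also fell, with 68 and 66 UMIs in normal and 8 and 2 UMIs in ischemic sections. Pprc1, the relative of PGC-1alpha, rose from 10.4 and 12.1 CPM to 33.7 and 33.6 CPM (1.59). Of 8 other electron donors and uncoupling proteins 3 fell and 2 rose, including the electron transfer flavoprotein subunits Etfa (-1.17) and Etfb (-0.97), which fell, and Ucp2 (1.14), an uncoupling protein relative, which rose.

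The alternative isoforms and paralogues of subunits moved apart from one another. AA467197, a paralogue of Ndufa4, rose from 1.03 and 0.91 CPM to 15.3 and 16.1 CPM (log2 fold change 4.01 ± 0.16, SE, adjusted p = 2.2e-07), while Ndufa4 itself fell. Cox6b2 rose too, from 12.0 and 12.0 CPM to 23.1 and 19.5 CPM (0.83). Ndufa4l2 (-0.84) and the assembly protein Higd2a (-0.63) fell, Cox4i2 (-0.56) and Higd1a (-0.10) did not pass, and Cox7b2 and Cox8c had 0 UMIs in every section.

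The isoforms known from muscle and brown fat were lower: Cox7a1 fell from 84.4 and 86.3 CPM to 11.9 and 12.1 CPM (-2.83), Cox6a2 fell from 3.01 and 2.75 CPM to 0.59 and 0.52 CPM (-2.36), and Cox8b had 441 and 165 UMIs in normal sections and 0 and 1 in ischemic sections. The 5 adipocyte markers summed to 674 and 398 CPM in normal and 207 and 198 CPM in ischemic sections, and their part in these falls was not tested.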

How the data were processed

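Gene expression was measured by 10X Visium in 4 kidney sections (2 normal, 2 ischemic). The deposited matrices hold UMI counts per gene and spot, which the authors made with Space Ranger 1.3.0 (file header) against mm10 (labels). Members were the 13 genes with the mt- prefix and 46 named nuclear subunits; members and lists were chosen with earlier results of these data known. Every member may be named; section values are given for the mt- members and for the largest, median and smallest changes of each complex, and other lists by their 3 largest called changes.

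Counts were summed per section, and for each zone of 20 or more spots within a section. A spot's zone was the highest of the marker scores for cortex, outer stripe, inner stripe and inner medulla. Scores were taken over the spot and up to 6 neighbours and z-scored within its section. Spots in the top 5% of the pelvis score with at least 10 pelvis marker counts were called pelvis instead. Sums were tested with edgeR 4.0.16 (R 4.3.3; TMM, filterByExpr, quasi-likelihood test, Benjamini-Hochberg threshold 0.05); comparisons of zones used the section as a block. CPM values are TMM-scaled unless given as shares of UMIs. The exception is marker sums by zone, which are per 1000000 UMIs of the zone without TMM factors. On simulated data with 200 changed genes the whole-section test recovered 193 (12 false calls among 15071 genes). The simulation gave every gene the same spread and changed far fewer genes than were called here. It therefore does not test the scaling or the spread between real sections. Alternatives were DESeq2 1.42.0, other scalings, filters, zone rules and omission of each section. Depth was 25957128 to 44528078 UMIs per section. Promoters came from RefSeq (GRCm38.p6), and the nuclear copy from blastn 2.17.0 on GRCm38. Groups came from the labels.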

Additional observations from a re-analysis of the deposited data

Results flagged for a closer look

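The ischemic minus normal difference was not the same in the medullary stripes as in the cortex by edgeR's test of the difference of differences with the section as a block. For the outer stripe 33 nuclear members were lower by this test (13.5% of all genes were). The log2 differences were -0.77 for Ndufv1, -0.70 for Ndufb8 and -0.65 for Ndufs7. For the inner stripe 44 nuclear members were (13.9% of all genes), with -1.02 for Ndufb8, -0.97 for Ndufb10 and -0.96 for Ndufb3. Among the 13 mitochondrial members 1 passed for the inner stripe, mt-Cytb at -0.60, a smaller share than among all genes. Without the block 1 nuclear member was lower for the outer stripe and 12 for the inner stripe (7.33% and 8.35% of all genes). The counts also moved with the omission of single sections. Ndufb8 had 1272 and 1083 CPM in normal and 705 and 695 CPM in ischemic cortex, but 1563 and 1216 CPM against 398 and 413 CPM in the inner stripe. The part of changed tissue make-up in these differences was not tested.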

How the results depend on the processing

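Most counts depended on single sections, and causes were not tested. Each omission left 1 section in a group, and the share of all genes called moved with the omissions too. The ranges below therefore do not separate a change in the members from a change over all genes. Omitting each section in turn gave whole-section counts of 0 to 13 mitochondrial and 16 to 46 nuclear members lower, 0 to 12 and 1 to 44 in the cortex, 2 to 11 mitochondrial in the outer stripe, 1 to 11 mitochondrial in the inner stripe, and 2 to 12 and 17 to 44 in the inner medulla. Within normal sections the same omissions gave, for the outer stripe against cortex, 0 to 1 mitochondrial lower, 0 to 3 mitochondrial higher, 1 to 2 nuclear lower and 1 to 9 nuclear higher; for the inner stripe 4 to 12 mitochondrial lower, 6 to 32 nuclear lower and 0 to 1 nuclear higher; and for the inner medulla 2 to 10 mitochondrial lower and 0 to 3 higher. For the difference of differences they gave 0 to 7 mitochondrial lower, 0 to 40 nuclear lower and 0 to 1 nuclear higher in the outer stripe, and 0 to 8 mitochondrial lower, 0 to 4 mitochondrial higher and 10 to 46 nuclear lower in the inner stripe.

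Same-numbered sections deviated together with a correlation of 0.22 over 15305 genes, but only 2 pairs exist and the labels tie them to nothing, so the samples share only a number. A replicate block gave 11 mitochondrial and 42 nuclear members lower in whole sections. Without the section block, normal outer stripe against cortex had 0 nuclear members higher, inner stripe against cortex 4 mitochondrial and 4 nuclear lower, inner medulla against cortex 1 mitochondrial lower and 0 higher, and the difference of differences 1 nuclear member in the outer stripe and 12 nuclear and 0 mitochondrial in the inner stripe.

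With no filter on low counts 10 mitochondrial members were lower in the cortex. Zones from the spot alone gave 0 mitochondrial members higher in normal inner medulla, and 1 and 0 mitochondrial members lower in the difference of differences for the outer and inner stripe. On total UMIs without TMM factors, a choice made after seeing the data, 8579 genes were called in whole sections in place of 9279. Of these 5750 were higher and 2829 lower, in place of 4737 and 4542. On that scale 5 mitochondrial members were lower in the inner stripe (16.6% of all genes were). In whole sections mt-Nd3 (0.0378), mt-Atp8 (0.023), Ndufa7 (0.0316) and Sdhd (0.0006) changed sign. In spots with few red cell UMIs, also chosen after seeing the data, the mitochondrial lower counts were 6 (whole sections), 5 (outer stripe) and 3 (inner medulla). Of all genes, 27.8%, 24.4% and 15.5% were lower in these places. The ischemic minus normal log2 ratio of mitochondrial to nuclear members was then 0.31 in the inner medulla in place of -0.14. Both mt-Nd3 (0.0089, whole section) and mt-Atp8 (0.0144, inner medulla) changed sign. Over the 4 omissions the log2 fold change of mt-Nd3 was -0.5008 to 0.0249 (positive without ischemic 1) and that of Cycs in the outer stripe -0.1607 to 0.0452 (negative without normal 1, and -0.0047 without ischemic 2). Cycs was -0.0239 there in DESeq2. DESeq2 called 10 mitochondrial and 45 nuclear members lower in whole sections.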

Other observations

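In the 5% of spots with the largest thick limb marker share, the median nuclear member share was 5.76% and 5.62% of UMIs in normal sections, against 4.36% and 4.46% in the other spots. In ischemic sections it was 2.49% and 2.54% against 2.83% and 2.73%, below the other spots. The median nuclear member share was also below the other spots there in the top 5% by fibroblast and smooth muscle, endothelium or adipocyte markers. In the 5% with the largest proximal tubule marker share it was 4.49% and 4.49% in normal sections, against 4.39% and 4.49%, and 3.57% and 3.46% in ischemic sections, against 2.75% and 2.68%. Across spots the mitochondrial and nuclear shares had Spearman correlations of 0.26 and 0.23 (normal) and 0.37 and 0.33 (ischemic), over 2382 to 2647 spots that share a library within a section. The mitochondrial share correlated with the UMIs of a spot at 0.25 and 0.41 (normal) and 0.18 and 0.27 (ischemic).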
